A study of Mus musculus with 68 samples.

Results

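The genes that copy DNA, and those that carry a cell from G1 into S phase, were followed through 68 single cells of the developing mouse cerebral cortex. The list held 47 genes, taken by their known function, although earlier results of these data were known when it was made. Every probe set that the platform annotation gave to these genes alone was read. Of these genes 46 had a probe set, with 102 probe sets in all, and only Chaf1a matched none. All 46 reached the signal of 20 transcript copies in at least 1 cell, among 10789 genes of the array that did so. A gene with several probe sets was read from the one with the highest mean. The 20-copy signal is the median signal of phe, a bacterial RNA added to every cell lysate at 20 copies, and it stood at 842, or 9.72 on the log2 scale.

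Each array held the amplified cDNA of 1 cell picked by hand, from the dorso-lateral cerebral wall of CD1 mice or from neurospheres grown from it. According to the methods, fragments at E11 and E12 were of the wall and those at E14 and E16 of its ventricular and subventricular zones. Dissection therefore changed with stage. The groups were 30 cells of E11, 28 of E16, 3 apical progenitors (APs, the stem cells that divide at the ventricle) of E12, 3 APs from neurospheres and 4 NICD/p18 APs. The neurospheres were grown for 3 days from E11 cells in suspension with FGF2 and EGF. The NICD/p18 APs were taken at E14, by the methods from small fragments of these zones, 3 days after pCAG-NICD and pEF-p18 had been electroporated together at E11. NICD is the intracellular domain of Notch1 and keeps progenitors undifferentiated, and p18 is the Cdk inhibitor encoded by Cdkn2c. The CAG and EF promoters are active in most cell types, so neither transgene was restricted to APs. According to the methods the NICD/p18 cells were chosen as EGFP+, Ttyh1+ and Tbr2- by qPCR and were checked for the absence of Ki67. The E12 APs were chosen as Ki67+, and the paper describes the neurosphere APs as Ki67+ too. A difference in proliferation between NICD/p18 APs and these groups was therefore set in part by how the cells were picked. The E11 and E16 cells were chosen by qPCR markers to represent progenitors. The number of each type among them depends on that choice. Since no label ties a cell to an embryo, a litter or a culture, each group counted as 1 sample and no p-value was computed. The spread given is that between cells.

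DNA replication starts in G1, when the origin recognition complex, Cdc6 and Cdt1 load the Mcm2 to Mcm7 helicase onto chromatin. In S phase Cdc45 and the GINS complex switch the helicase on, primase and the polymerases make the new strands, the clamp Pcna holds the polymerases, and ribonucleotide reductase supplies deoxynucleotides. E2F factors, held back by the retinoblastoma protein until Cdk4, Cdk6 and Cdk2 inactivate it, drive transcription of many of these genes. p18 blocks Cdk4 and Cdk6. In the cortex APs cycle throughout neurogenesis, intermediate progenitors (IPs) divide away from the ventricle, and neurons have left the cycle.

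The E11 and E16 labels give the stage and not the type, so types were rebuilt by clustering on AP, IP and neuron markers that contain none of the 47 genes. This gave 24 AP-like, 3 IP-like and 3 neuron-like cells at E11 and 17, 8 and 3 at E16, and a difference from the study may come from these rebuilt names. The AP-like clusters had Ttyh1 with Id4 at E11 and Fgfbp3 with Ednrb at E16 among their 10 leading genes, and the IP-like clusters had Eomes and Gadd45g. The neuron-like clusters had Dcx and Tbr1 at E11 and Snap25, Tubb3 and Neurod6 at E16. The E11 AP-like cell labelled 31i was left out of comparisons. This left 29 E11 cells, 23 of them AP-like. Another E11 AP-like cell, 42P, had 4 of 4 blood markers over the 20-copy signal and an E16 AP-like cell, 81E, had 2 of 2 microglia markers. Both stayed in. Without them the median difference between E16 and E11 AP-like cells, less that of all genes, was -0.71 in place of -0.51. The deposited 2% trimmed mean signal was the same in all 10 arrays of E12, neurosphere or NICD/p18 APs, whereas it ran from 47.5 to 297.5 in the 58 arrays of E11 and E16. A difference between these sets of arrays cannot be told apart from their scaling by the authors. Precision is limited by how few arrays most groups had. Each cell had 2543 to 2871 of the 10789 genes over the 20-copy signal.

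Progenitors from E11, E12, E16 and neurospheres carried many of the 46 genes over the 20-copy signal, and NICD/p18 APs and neuron-like cells only a few. The number was 31, 24 and 28 in the 3 E12 APs and 16, 33 and 16 in the 3 neurosphere APs. In the 4 NICD/p18 APs it was 6, 5, 4 and 1, so every NICD/p18 AP lay below every E12 and neurosphere AP. The 23 E11 AP-like cells ran from 17 to 34 with a median of 26, and the 17 E16 AP-like cells from 12 to 34 with a median of 22. The 3 E11 IP-like cells had 17, 22 and 30, and the 8 E16 IP-like cells ran from 17 to 27 with a median of 18.5. Neuron-like cells had 5, 7 and 8 at E11 and 4, 4 and 8 at E16, of which 3 cells lay within the NICD/p18 range of 1 to 6 and 3 above it.

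**Figure D1:**
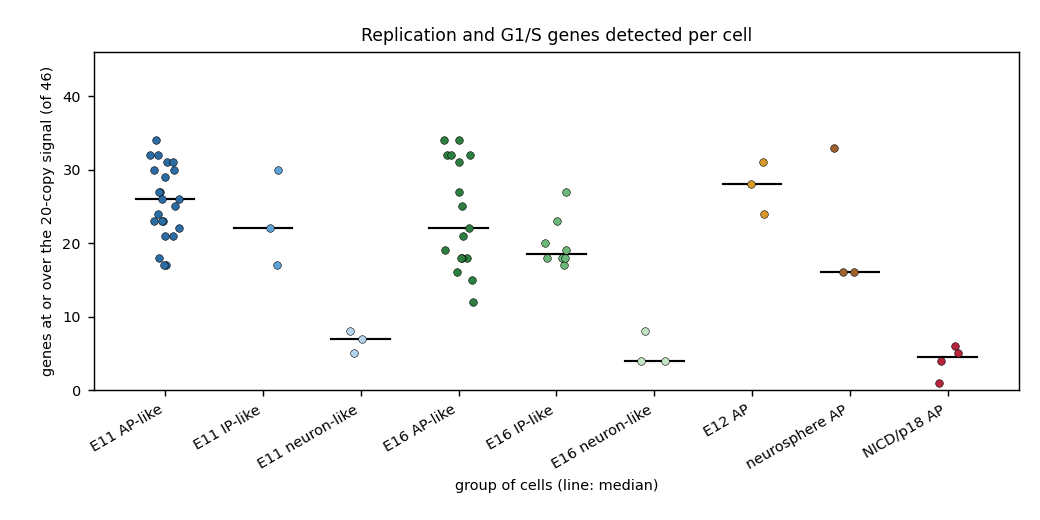
Number of the 46 replication and G1/S genes at or over the 20-copy signal in each cell (vertical axis), by group of cells (horizontal axis), with 1 point a cell and a line at the group median. The 4 NICD/p18 APs, at 1 to 6 genes, sit with the neuron-like cells and below all other progenitors.

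The same contrast ran through each role. Of all pairs of a licensing gene and a cell, 73.3% were over the 20-copy signal in E12 APs, 50% in neurosphere APs and 7.5% in NICD/p18 APs. For the nucleotide supply genes the shares were 73.3%, 73.3% and 10%, and for single-strand binding and strand joining 80.0%, 60.0% and 5.00%. Polymerase and primase genes gave 58.3%, 50% and 6.25%, and the clamp with its loader 55.6%, 50% and 16.7%. The NICD/p18 share was the lowest of the 3 in every role. Helicase activators were less often over the signal in the cycling APs too, at 33.3% in both groups against 8.33%. The G1/S regulators were at 22.2%, 11.1% and 0% and the histone and chromatin genes at 66.7%, 22.2% and 16.7%.

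**Figure D2:**
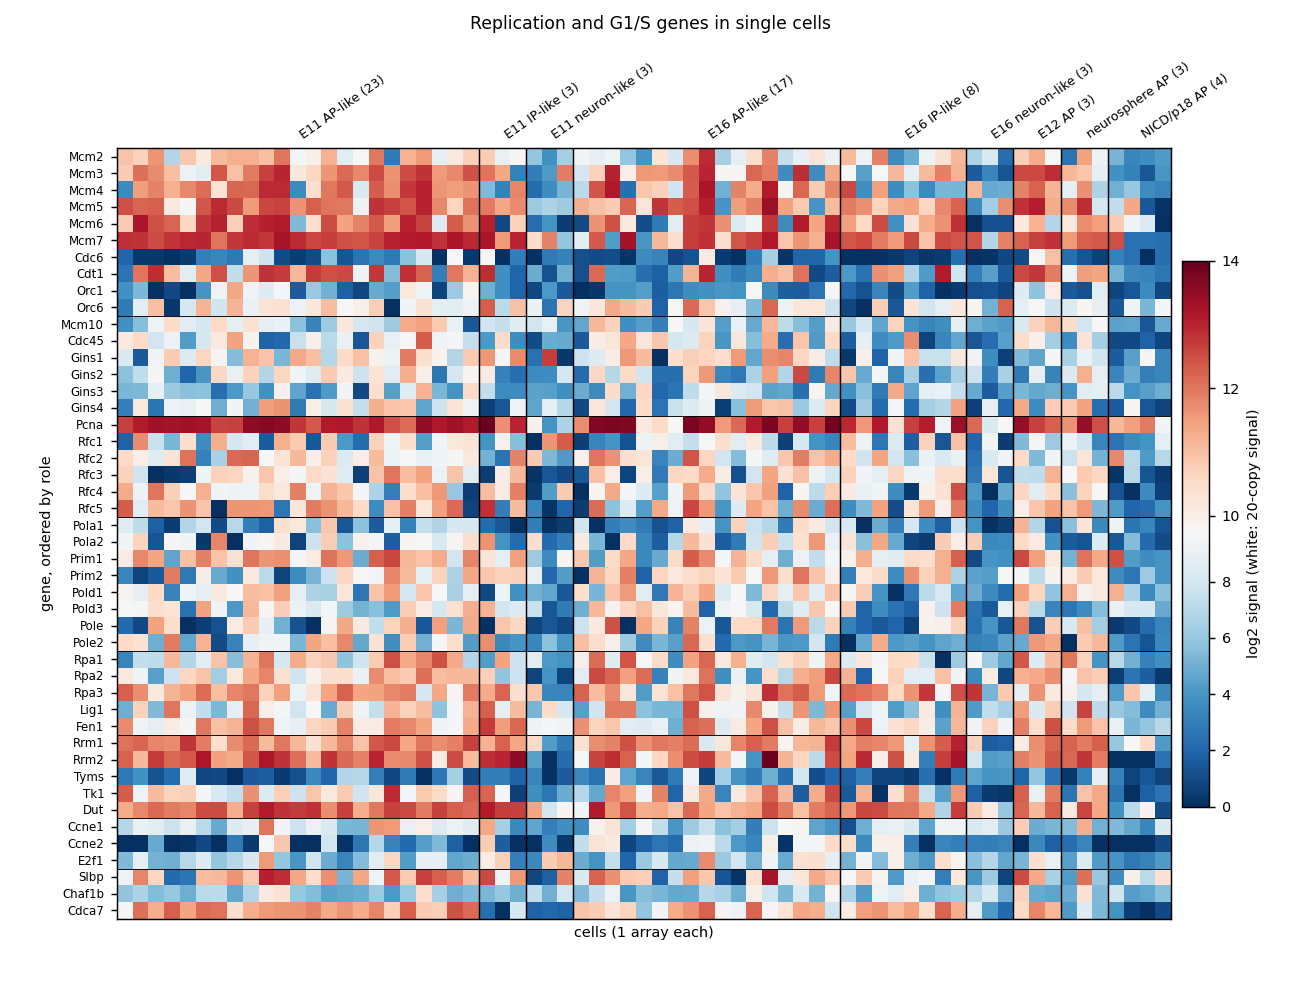
Log2 signal of each of the 46 genes (rows, ordered by role with lines between roles) in 67 cells (columns, by group, with the number of cells in brackets). White marks the 20-copy signal of 9.72, red higher and blue lower signals. The columns of the neuron-like cells and of the NICD/p18 APs are blue for most genes, and Pcna, Mcm7, Rrm1 and Dut are red across nearly all other cells.

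The main contrast set NICD/p18 APs against E12 and neurosphere APs. The groups also differ in stage, dissection, electroporation and culture. The series has no array of NICD alone, of EGFP alone or of E14 cells without electroporation. The parts of NICD, p18, electroporation, stage, dissection and culture therefore cannot be told apart. Against E12 APs 44 of the 46 genes had a lower mean in NICD/p18 APs, as did 53.2% of all 10789 genes. The median difference was -5.24 on the log2 scale against -0.15 over all genes. A gene was counted as changed where the means differed by 1 log2 unit or more and the higher mean reached the 20-copy signal. By that rule 22 of the 46 genes were lower, against 10.5% of all genes, and 0 were higher, against 5.14%. Against neurosphere APs, which share the NICD/p18 cells with the first comparison, 43 had a lower mean, against 52.2% of all genes. The median was -4.15 against -0.12, and 14 genes were counted as lower against 9.32% of all genes. Both control groups were scaled like the NICD/p18 arrays.

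Set against the 6 E12 and neurosphere APs together, 16 of the 46 genes were lower by the same rule, against 7.35% of all genes, and 0 were higher, against 5.43%. For 15 of the 46, every NICD/p18 cell lay below all 6 other cells, which held for 2.18% of all genes. Signals far under the 20-copy level are not calibrated, and the median difference rests on them. With every signal under the 20-copy signal counted as that signal, the median difference was -0.65 in place of -4.43, 14 genes were still lower by 1 unit or more, and 3.06% of all genes were. Without M5K and M6C, the NICD/p18 cells with 13 and 10 of 20 neuron markers over the 20-copy signal, the members' median less that of all genes was -4.38 against -4.26 with all 4 cells.

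The subunits of ribonucleotide reductase were lower in NICD/p18 APs by unequal amounts. Rrm2, its S-phase subunit, was at 11.86, 11.63 and 12.39 in the E12 APs, at 12.16, 12.79 and 11.89 in the neurosphere APs and at 0.02, -1.04, -0.52 and 2.45 in the NICD/p18 APs. It was high in all 6 cycling APs and under the 20-copy signal in all 4 NICD/p18 APs, and the groups did not overlap. The difference of means was -11.89, which shrank to -2.40, or 5.29-fold, with low signals counted as the 20-copy signal. Rrm1, its large subunit, was at 10.04, 11.70 and 12.21 in E12 APs, at 12.23, 11.93 and 12.26 in neurosphere APs and at 6.05, 9.71, 10.58 and 4.19 in NICD/p18 APs. Its mean differed by -4.10, near the members' median. Rrm1 stayed over the 20-copy signal in 1 NICD/p18 cell, which overlapped the lowest E12 AP. Dut, which clears dUTP, was at 12.22, 11.10 and 12.25 in E12 APs, at 10.11, 12.57 and 11.36 in neurosphere APs and at 3.81, 7.06, 9.86 and 1.00 in NICD/p18 APs. Only M6C reached the 20-copy signal and the groups did not overlap. Tk1, a thymidine salvage kinase, was over it in 2 of 3, 2 of 3 and 0 of 4 cells. Tyms, which makes dTMP, was over the signal in 1 of the 67 cells by its probe set.

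Among the licensing genes the helicase subunits were lower without exception in their means. Mcm3 was at 12.53, 12.53 and 12.87 in E12 APs, at 11.13, 10.89 and 8.77 in neurosphere APs and at 3.83, 3.17, 1.43 and 4.05 in NICD/p18 APs. All 4 NICD/p18 cells were low, and the mean differed by -8.34, or -1.89 with low signals counted as the 20-copy signal. Cdt1, the loading factor, was at 12.55, 12.74 and 11.90 in E12 APs, at 9.21, 11.50 and 11.42 in neurosphere APs and at 5.09, 3.48, 3.19 and 2.69 in NICD/p18 APs. Its groups did not overlap either, with a difference of -7.94, or -1.92 counted in that way. Mcm7 split the NICD/p18 cells, at 12.49 in M5A and at 2.48, 2.47 and 2.41 in the remaining NICD/p18 cells, against 11.56 to 12.81 in the 6 cycling APs. M5A was in the range of the cycling APs and the rest lay far below it. Mcm5 was at 7.35, 11.39, 1.46 and 0.19 in the NICD/p18 APs, with M5K inside the range of 7.99 to 13.09 of the others. Mcm2 and Mcm4 were over the 20-copy signal in 0 of 4 NICD/p18 cells, in 3 of 3 E12 APs and in 1 of 3 neurosphere APs, and Mcm2 in W2G, at 2.52, lay below every NICD/p18 cell. Mcm6 was over it in 1 of 4 NICD/p18, 2 of 3 E12 and 3 of 3 neurosphere APs. Of the loaders, Orc1 and Cdc6 were each over it in 1 of 3 E12 APs and in no neurosphere or NICD/p18 AP, and Orc6 in 1 of the 3 neurosphere APs alone.

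Promoter sequence was a feature that the choice of these genes did not use, and E2F-type motifs were more frequent in them than over all promoters. RefSeq promoters of the build GRCm38.p6, from 250 bases before to 50 bases after the start, were at hand for 39 of the 47 genes, with 43 promoters. A match to TTTGGCGC, TTTCCCGC, TTTGGCGG, TTTCGCGC or TTTCCCGG on either strand was in 18 of the 43, or 41.9%, against 3.59% of all 32851 promoters of the same length and 6.53% of those of all genes that reached the 20-copy signal. These spellings can overlap each other on opposite strands. CCAAT, on either strand, was in 53.5% of the members' promoters. It was in 37.4% of all promoters and in 37.9% of those of genes that reached the 20-copy signal. TTTGAA on either strand, a spelling of the cell-cycle homology region, was in 9.30%, against 17.9% and 11.5% in the same order. The last 2 shares show that the CHR background was lower among genes that reached the signal. A match is a run of letters and was not tested as a binding site. Promoters of 5 helicase and loading genes are shown because they hold such a match, which is in capitals. Mcm2, Mcm10 and Orc6 held none, and the Mcm7 promoter shown is the one of its 2 with a match.
The Mcm3 promoter lies at chr1:20820263-20820562 on the minus strand, that of Cdt1 at chr8:122567765-122568064 on the plus strand, that of Mcm5 at chr8:75109259-75109558 on the plus strand, that of Mcm6 at chr1:128359656-128359955 on the minus strand and that of Mcm7 at chr5:138171834-138172133 on the minus strand.
Mcm3: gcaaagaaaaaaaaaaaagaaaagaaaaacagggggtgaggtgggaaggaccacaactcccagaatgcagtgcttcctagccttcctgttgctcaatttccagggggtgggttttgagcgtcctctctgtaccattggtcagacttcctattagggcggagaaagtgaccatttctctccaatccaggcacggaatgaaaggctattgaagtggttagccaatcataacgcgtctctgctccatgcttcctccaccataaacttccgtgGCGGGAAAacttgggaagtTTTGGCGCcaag
Cdt1: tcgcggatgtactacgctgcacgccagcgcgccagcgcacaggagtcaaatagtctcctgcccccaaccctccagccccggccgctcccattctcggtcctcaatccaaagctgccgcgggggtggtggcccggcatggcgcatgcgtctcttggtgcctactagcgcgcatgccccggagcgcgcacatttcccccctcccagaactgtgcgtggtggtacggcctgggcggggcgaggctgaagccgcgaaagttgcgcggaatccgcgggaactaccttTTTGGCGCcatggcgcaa
Mcm5: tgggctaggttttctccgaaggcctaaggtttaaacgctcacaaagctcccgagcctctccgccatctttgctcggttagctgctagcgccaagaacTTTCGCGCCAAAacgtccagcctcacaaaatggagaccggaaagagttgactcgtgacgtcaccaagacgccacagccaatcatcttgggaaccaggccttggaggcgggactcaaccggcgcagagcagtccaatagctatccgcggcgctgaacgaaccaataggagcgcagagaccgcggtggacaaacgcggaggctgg
Mcm6: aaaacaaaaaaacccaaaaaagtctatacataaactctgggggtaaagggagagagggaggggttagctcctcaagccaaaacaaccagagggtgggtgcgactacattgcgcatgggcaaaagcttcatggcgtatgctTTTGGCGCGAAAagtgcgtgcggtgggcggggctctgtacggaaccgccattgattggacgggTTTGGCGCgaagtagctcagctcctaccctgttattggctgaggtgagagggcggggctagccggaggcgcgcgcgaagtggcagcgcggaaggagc
Mcm7: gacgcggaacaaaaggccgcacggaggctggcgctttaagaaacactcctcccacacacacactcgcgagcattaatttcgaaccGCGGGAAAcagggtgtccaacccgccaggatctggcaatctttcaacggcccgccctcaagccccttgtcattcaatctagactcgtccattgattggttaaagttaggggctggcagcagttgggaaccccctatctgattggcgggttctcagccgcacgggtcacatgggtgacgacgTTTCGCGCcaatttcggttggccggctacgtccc
Mcm3, Mcm5 and Mcm7 each held 2 matches, Mcm6 held 3 and Cdt1 held 1. In Mcm5 and Mcm6 a match on one strand shared bases with a match on the other. Rrm2, Rpa2 and Pcna held none of these letters in this window. Of the measured genes, the 17 with a match had a median difference of -4.65 between NICD/p18 APs and the 6 others and the 21 with a promoter and no match one of -4.37, a description with no test.

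Strand synthesis and single-strand binding followed the helicase. Rpa2, a subunit of the single-strand binding complex, was at 11.24, 11.33 and 11.68 in E12 APs, at 9.62, 10.93 and 10.77 in neurosphere APs and at 0.57, 2.58, 1.71 and 0.32 in NICD/p18 APs. Its groups did not overlap, with a difference of -9.63, or -1.23 with low signals counted as the 20-copy signal. Rfc5, part of the clamp loader, was at 10.003, 10.89 and 11.45 in E12 APs, at 10.93, 11.54 and 5.36 in neurosphere APs and at 4.23, 1.99, 2.21 and 3.92 in NICD/p18 APs. One neurosphere AP, W6D, was low for Rfc5 but still above all NICD/p18 cells. Fen1, the flap nuclease, was over the 20-copy signal in all 6 cycling APs and in 0 of 4 NICD/p18 APs, and Rpa1 in 2 of 3, 2 of 3 and 0 of 4. Prim1, the catalytic primase subunit, was at 12.44 in M5A and at 4.26, 3.68 and 3.96 in the other NICD/p18 cells. Pold3, a polymerase delta subunit, was the exception, at 9.02, 8.17, 8.18 and 4.81 in NICD/p18 APs, a mean 2.05 above the 6 others, although no NICD/p18 cell reached the 20-copy signal.

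Pcna was the gene that most NICD/p18 cells kept. Pcna was at 13.50, 12.65 and 12.28 in E12 APs, at 11.63, 13.48 and 12.49 in neurosphere APs and at 11.12, 11.49, 11.93 and 9.42 in NICD/p18 APs. The NICD/p18 cell M6C overlapped the neurosphere APs, and the mean was 1.68 log2 units lower. It was over the 20-copy signal in 3 of the 4 NICD/p18 APs and Slbp, the histone mRNA binding protein, in 2. Another 11 genes, among them Mcm5, Mcm6, Mcm7, Prim1 and Rrm1, were over it in 1, and 33 in none. Of the 46 genes, 15 were over it in all 3 E12 APs and 9 in all 3 neurosphere APs. The like counts over all genes were not made, so these counts do not set the members apart.

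Each of the remaining genes was over the signal in at most 1 NICD/p18 AP. Among helicase activators, Mcm10 was over it in 2 of 3 E12 APs and 2 of 3 neurosphere APs, Gins4 likewise in 2 and 2, Cdc45 in 2 and 1, Gins2 in 0 and 1, and Gins1 and Gins3 in none. Over the E11 and E16 cells Gins1 was over it in 17 of 29 and 15 of 28, Gins2 in 11 and 8, Cdc45 in 9 and 11, Gins4 in 9 and 7, Mcm10 in 7 and 6 and Gins3 in 4 and 5. Of the clamp loader subunits, Rfc4 was over the signal in 17 E11 and 13 E16 cells, Rfc2 in 16 and 13 and Rfc1 in 13 and 6. Rfc1, the large subunit, was in none of the 10 cells of the smaller groups. Among the polymerase genes the count was 13 and 13 for Pole, 12 and 12 for Pola2, 10 and 12 for Pold1, 11 and 6 for Pole2 and 3 and 4 for Pola1. Rpa3 was over the signal in 25 and 24 cells, Lig1, the DNA ligase, in 12 and 10, and Chaf1b, a chromatin assembly subunit, in 3 and 3.

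**Figure D3:**
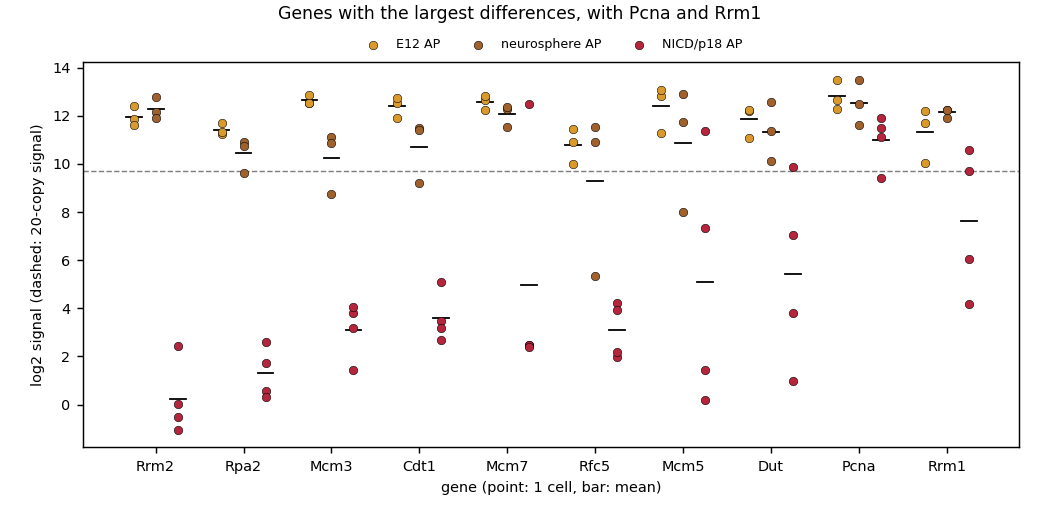
Log2 signal (vertical axis) of the 8 genes with the largest difference between NICD/p18 APs and the 6 others, with Pcna and Rrm1 (horizontal axis), in each E12, neurosphere and NICD/p18 AP (points), with the group mean (bar) and the 20-copy signal (dashed line). All NICD/p18 cells lie below the line for Rrm2, Rpa2, Mcm3, Cdt1 and Rfc5, and 3 of 4 lie above it for Pcna.

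Other measures moved with the NICD/p18 result, and their part in it was not tested. Mki67, the proliferation marker used in the picking, was at 10.39 to 12.95 in the 6 cycling APs and at 4.23, -0.09, 0.69 and 1.69 in the NICD/p18 APs. Among genes of G2 and mitosis, 27 of 37 were counted as lower against E12 APs, where 10.5% of all genes were, and 30 of 37 against neurosphere APs, where 9.32% were. The lys spike ran from 10370 to 15251 in NICD/p18 APs, from 6005 to 8188 in E12 APs and from 4152 to 6332 in neurosphere APs. NICD/p18 APs did not overlap the others for lys. The dap spike ran from 1817 to 4841, from 856 to 1507 and from 558 to 3366 in the same order. The phe spike ran from 1176 to 4678 in NICD/p18 APs, from 290 to 1571 in E12 APs and from 13.1 to 1662 in neurosphere APs. Neuron markers over the 20-copy signal numbered 4, 13, 10 and 1 of 20 in M5A, M5K, M6C and M6H and 1 to 5 in the 6 others, and AP markers 12 to 16 of 18 against 9 to 15. Vessel markers were over it in 0 to 2 of 3 in the NICD/p18 APs and in none of the 6 others, and blood and microglia markers were at 0 in all 10. Gapdh lay between 12.49 and 13.49 in the NICD/p18 APs and between 12.91 and 13.51 in the 6 others, and each NICD/p18 cell had 2656 to 2792 genes over the 20-copy signal, against 2732 to 2813.

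The transgenes themselves did not stand out at the endogenous probe sets. Cdkn2c, which encodes p18, was at 8.87, 6.29, 5.84 and 8.69 in NICD/p18 APs and between 4.36 and 9.92 in the 6 others. Notch1 was at 9.20, 9.30, 10.30 and 10.64 and between 9.75 and 11.88. The electroporated p18 was a coding cDNA and NICD a fragment of Notch1, and the arrays read transcript ends, so a probe set outside the inserted part checks nothing.

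The other replication genes were mostly lower, and the other G1/S regulators went in both directions. Of 36 other replication genes, 8 were counted as lower and 0 as higher against the 6 cycling APs, where 7.35% and 5.43% of all genes were. A lower mean was found for 34 of the 36 and for 53.7% of all genes. Dbf4, the activator of the Cdc7 kinase, was at 0.73, 6.11, -0.02 and 1.61 in NICD/p18 APs and between 8.48 and 12.25 in the 6 others. Tipin, of the fork protection complex, was at 3.54, 5.00, 9.91 and 4.88 against 8.84 to 11.87, and Nasp, a histone chaperone, at 4.80, 7.49, 8.70 and 10.36 against 10.54 to 12.50. For Dbf4 and Nasp the groups did not overlap, and for Tipin M6C lay inside the range of the 6 others. Of 27 other G1/S regulators 20 had a lower mean, against the same 53.7% of all genes. By the 1-unit rule 4 were lower and 4 higher, against the same 7.35% and 5.43% of all genes. Tfdp1, the E2F partner, was at 1.22, 7.75, 9.75 and 1.05 against 10.27 to 11.73, and the groups did not overlap. Cdk6, a target of p18, was instead at 11.09, 11.37, 10.86 and 10.16 against 1.44 to 10.98. Cdk6 was over the 20-copy signal in all 4 NICD/p18 APs and in 1 of the 6 others. Skp2, which marks Cdk inhibitors for breakdown, was at 3.89, 11.23, 6.93 and 10.40 against 7.80 to 12.05. Of the G1/S members, E2f1 and Ccne1 were over the signal in 1 of 3 E12 APs, in 0 and 1 of 3 neurosphere APs and in 0 of 4 NICD/p18 APs, and Ccne2 in none of the 10 cells.

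The cycling controls differed from each other as well. Neurosphere APs had 14 genes counted as lower than in E12 APs, against 7.16% of all genes, and 4 as higher, against 5.67%. With low signals counted as the 20-copy signal these were 4, against 2.1%, and 0, against 2.07%. The members' median difference was -0.72. W2O, with 33 genes over the 20-copy signal, was unlike W2G and W6D with 16 each, and without it the median difference less that of all genes was -1.77 in place of -0.67. Mcm3, Cdt1, Rpa2 and Cdca7 were lower in every neurosphere AP than in every E12 AP, and Prim2, the regulatory primase subunit, was higher. The share of all genes without overlap between these groups was not computed, so the separation of these genes does not set them apart.

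The stage comparison asked whether replication genes differ between E11 and E16 cells. The part of the wall that was dissected changed as well, so stage and dissection cannot be told apart. The 46 genes were on balance a little lower at E16. Over all cells, 29 at E11 and 28 at E16, 35 of the 46 had a lower mean at E16, against 52.7% of all genes. The median difference was -0.77 against -0.06 over all genes. By the 1-unit rule 5 were lower, against 2.43% of all genes, and 0 were higher, against 1.51%. With low signals counted as the 20-copy signal 0 were lower, against 0.343%. Among AP-like cells 33 of 46 had a lower mean, against 53.5% of all genes. The median was -0.60 against -0.10, and 11 genes were lower against 4.33% and 0 higher against 2.22%. With low signals counted as the 20-copy signal 2 were lower among AP-like cells, against 0.695%. The members' mean less the mean of all genes in a cell had an SD between cells of 1.07 within AP-like groups. The median difference was smaller than this spread of single cells, which does not measure how precisely that difference is known.

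The 6 genes with the largest stage difference among those whose higher mean reached the 20-copy signal were Slbp, Mcm6, Prim1, Mcm3, Mcm7 and Mcm4, of which Mcm4, at -0.98, did not pass the 1-unit rule. Mcm7 ran from 5.93 to 13.24 with a median of 12.80 at E11 and from 4.05 to 13.29 with a median of 12.12 at E16. In the AP-like cells Mcm7 was over the 20-copy signal in 23 of 23 at E11, where it never went below 12.01, and in 14 of 17 at E16. Mcm6 ran from 0.48 to 13.22 with a median of 11.86 at E11 and from -0.26 to 13.10 with a median of 10.94 at E16. It was over the signal in 21 of 23 AP-like cells and in 10 of 17. Mcm3 ran from 2.97 to 12.97 with a median of 11.75 and from 1.29 to 13.02 with a median of 10.89, and Mcm4 from 2.21 to 13.03 with a median of 11.63 and from 2.41 to 13.20 with a median of 10.77. The highest cells of both stages were close for these subunits, and fewer E16 cells were over the 20-copy signal. Slbp ran from 0.88 to 13.06 with a median of 11.12 and from 0.21 to 13.24 with a median of 9.77, a difference of means of -1.65, or -0.73 with low signals counted as the 20-copy signal. Prim1 ran from 3.53 to 12.59 with a median of 10.97 and from 0.93 to 12.30 with a median of 9.75, a difference of -1.44, or -0.51 counted in that way.

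The share of AP-like cells over the signal went in both directions. Cdt1 was over the 20-copy signal in 17 of 23 AP-like cells at E11 and in 6 of 17 at E16, and Mcm2 likewise in 17 and 6. Prim2 was over it in 8 of 23 and in 14 of 17, opposite to its partner Prim1, which was over it in 19 of 23 and 8 of 17. Cdc45 was over it in 8 of 23 and 10 of 17 and Orc6 in 10 of 23 and 11 of 17. In all 28 genes had a lower share of AP-like cells over the signal at E16 and 18 a higher share, whereas 42.9% of all genes had a lower share. The genes with high medians were over the signal in nearly all AP-like cells of both stages. Over all cells Pcna had medians of 13.10 at E11 and 12.64 at E16, Dut of 12.27 and 11.48, and Rrm1 of 11.75 and 11.69. In AP-like cells each of these 3 was over the signal in 23 of 23 and in 16 of 17.

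**Figure D4:**
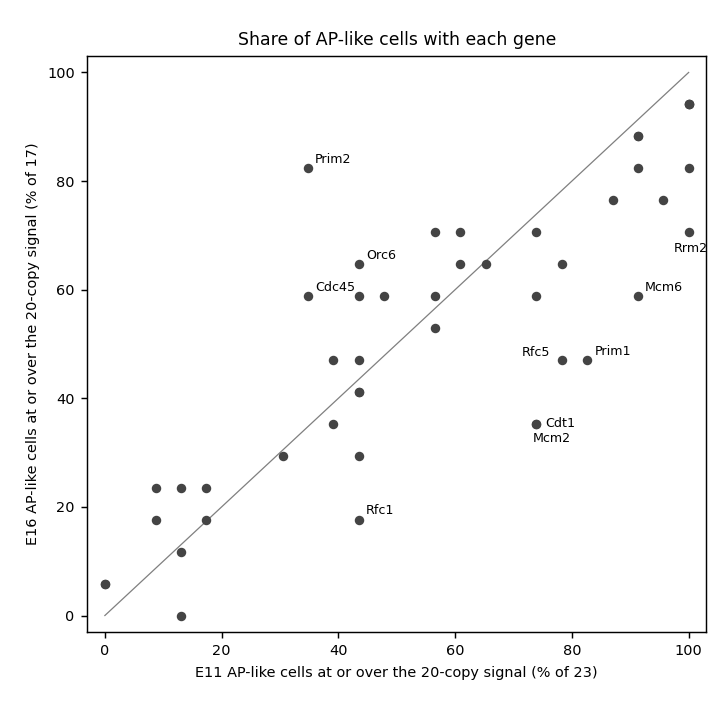
Share of E16 AP-like cells (vertical axis, % of 17) against the share of E11 AP-like cells (horizontal axis, % of 23) in which each of the 46 genes was at or over the 20-copy signal, with a line of equal shares and names for the 10 genes farthest from it. Mcm2, Cdt1, Prim1 and Mcm6 lie below the line and Prim2, Cdc45 and Orc6 above it.

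In E16 IP-like cells 32 of the 46 genes had a lower mean than in AP-like cells and 14 a higher one. Over all genes 50.4% had a lower mean, and the median difference was -0.62 against -0.01 over all genes. By the 1-unit rule 4 were higher, against 3.42% of all genes, and 2 lower, against 2.77%. Helicase activators were over the 20-copy signal in 16.7% of gene and cell pairs, against 43.1% in AP-like cells. Mcm4 ran from 3.56 to 12.54 with a median of 5.21 in the 8 IP-like cells and from 2.41 to 13.20 with a median of 11.32 in the 17 AP-like cells. It was over the 20-copy signal in 2 of 8 and in 13 of 17, the largest difference of the list at -3.97, while its partner Mcm5 was over it in 8 of 8 and 15 of 17. Rpa1 ran from -0.38 to 10.56 with a median of 8.94 and from 3.65 to 12.42 with a median of 10.37. Rfc3 ran from 8.82 to 10.70 with a median of 9.95 and from 0.78 to 11.42 with a median of 9.9987, and its mean was 1.81 higher in IP-like cells although the medians were close. With low signals counted as the 20-copy signal, the Rfc3 difference was -0.11. Prim1 ran from 8.53 to 12.28 with a median of 10.49 and from 3.45 to 12.30 with a median of 9.64, a difference of 1.49. It was -0.10 when clusters were built by average linkage, which gave 10 IP-like cells. The AP-like cluster then still held 17 cells, and the neuron-like cluster fell from 3 cells to 1. In the 3 neuron-like cells of complete linkage Prim1 was at 0.93, 3.96 and 3.84.

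At E11 only 3 cells were IP-like. Here 30 of the 46 genes had a lower mean than in AP-like cells and 16 a higher one, where 53.8% of all genes had a lower mean. The median difference was -0.48 against -0.16 over all genes. By the 1-unit rule 7 were higher, against 6.34% of all genes, and 8 lower, against 4.65%. Rrm2 was at 12.87, 12.97 and 13.56 and Fen1 at 11.49, 12.17 and 12.70, both high in all 3 cells. Mcm4 was over the signal in 1 of 3 and Cdt1 in 1 of 3, against 20 and 17 of 23 AP-like cells. Cdca7, a chromatin factor, was over it in 0 of 3, and it was among the 10 leading genes of the AP-like cluster, so this is no finding. The median difference less that of all genes, -0.32, was -1.98 when average linkage put 5 cells in this group. The AP-like cluster held 24 cells by either linkage, and the neuron-like cluster fell from 3 cells to 1.

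Neuron-like cells had few of these genes. Against AP-like cells 43 of 46 had a lower mean at each stage, where 56.8% of all genes did at E11 and 52.2% at E16. The median difference was -4.10 at E11 and -3.27 at E16, against -0.39 and -0.11 over all genes. By the 1-unit rule 19 were lower at E11, against 7.28% of all genes, and 10 at E16, against 5.13%. Rrm2 was at -0.65, 2.24 and 4.44 in the E11 neuron-like cells and at 4.25, 4.42 and 7.96 in those of E16, under the 20-copy signal in all 6. Pcna was over the signal in 1 of 3 cells at each stage, and Mcm7 and Dut in 2 of 3. E2f1, the S-phase activator, was an exception at E11, with 10.80 and 11.14 in 2 of the 3 neuron-like cells and 3.44 in the other, against 2 of 23 AP-like cells over the signal. In all 30 of the 46 genes were over the signal in no E11 neuron-like cell and 34 in no E16 neuron-like cell, beside 33 in no NICD/p18 AP. The like counts over all genes were not made, so these counts do not set the members apart.

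Measured against AP-like cells, all 46 genes had a lower mean in NICD/p18 APs. Of all genes 53.0% did against E11 and 50.3% against E16 AP-like cells. The median difference was -4.44 from E11 and -3.80 from E16 AP-like cells, and 19 and 12 genes were counted as lower, against 6.31% and 4.03% of all genes. These comparisons set arrays against each other that the authors had scaled differently, and share the NICD/p18 cells with those above.

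Within the AP-like cells the mean of the replication genes varied opposite to that of the genes of G2 and mitosis. The mean of the 46 genes ran from 7.80 to 10.16 in E11 AP-like cells and from 6.37 to 10.46 in E16 AP-like cells. Across the 23 E11 cells its Pearson correlation with the mean of 37 G2 and mitosis genes was -0.65, and across the 17 E16 cells -0.62. These are descriptions over cells that share a stage and a tissue. Over all E11 cells, neuron-like cells included, the correlation was 0.41. The correlation of the members' mean with the number of genes over the 20-copy signal was 0.00 at E11 and -0.35 at E16, with the housekeeping mean 0.23 and 0.24, and with the lys spike 0.29 and 0.13.

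The opposite course held for most members but not with equal strength. Of the genes over the 20-copy signal in 25% of the cells or more, 28 of 37 at E11 and 32 of 36 at E16 had a correlation below 0 with the G2 and mitosis mean. The share of all genes with a correlation below 0 was not computed, so these counts do not set the members apart. The correlation was -0.53 for Mcm3, -0.47 for Pcna and -0.45 for Mcm7 at E11, and -0.62 for Mcm6, -0.58 for Cdt1 and -0.49 for Pcna at E16. Cdc45 at E11, with 0.33, and Pold3 at E16, with 0.46, were on the other side. Pairs of members were only weakly correlated with each other, with a median of 0.08 over all pairs of 37 genes at E11 and 0.23 over all pairs of 36 genes at E16. By contrast, 21 pairs of probe sets for 1 member had a median correlation of 0.89, from 0.61 to 0.99, and lay on the same side of the 20-copy signal in a median of 90% of cells.

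**Figure D5:**
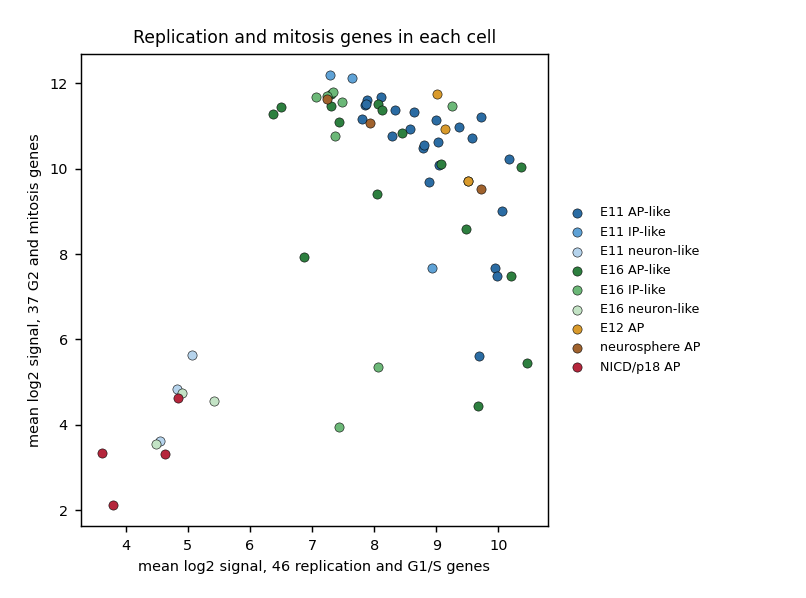
Mean log2 signal of the 37 G2 and mitosis genes (vertical axis) against that of the 46 replication and G1/S genes (horizontal axis), 1 point a cell, coloured by group. AP-like cells high in one set tend to be low in the other, and the NICD/p18 APs and neuron-like cells are low in both, with replication means of 3.61 to 4.84 and 4.48 to 5.42.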

How the data were processed

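Cells were lysed with bacterial spike RNAs of known copy number (lys 1000, dap 100, phe 20, thr 5), their cDNA was amplified and hybridised to Affymetrix mouse arrays, 1 cell an array. The authors deposited MAS5 intensity values on a linear scale, with a 2% trimmed mean that was equal in 10 arrays and ran from 47.5 to 297.5 in 58. Here all 68 arrays were quantile normalized together and taken to log2 with no offset. Quantile normalization gives all cells the same distribution, so a change in total RNA cannot be seen in it. The lys spike differed between groups, and its relation to total RNA was not tested.

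Groups came from the labels. E11 and E16 types were rebuilt by complete-linkage clustering on marker probe sets into 3 clusters a stage, and each was named by the marker list with most genes among its 10 leading genes, a naming rule settled after values were seen. Probe sets with several gene symbols (932 of 35890) were not used. A gene entered if its probe set with the highest mean reached the 20-copy signal in 1 cell. Differences are of mean log2 signals. With 1 sample a group no test was run. The code was checked on simulated shifts. Members, lists and the genes named were chosen with earlier results of these data known. Values by cell are given for the members with the largest difference in mean, where the higher mean reached the 20-copy signal: 8 for NICD/p18 against the 6 E12 and neurosphere APs, 6 for E16 against E11 cells and 4 for E16 IP-like against AP-like cells. They are also given for the 4 members highest over all cells, for Mki67, Cdkn2c, Notch1 and Gapdh, and for the 3 other replication genes and 3 other G1/S regulators with the largest such difference. Pold3 and the genes named for IP-like cells of E11 and for neuron-like cells were singled out after their values were seen. The E11 cell 31i was left out, as the methods state. None of the 2278 pairs of arrays was identical, with correlations of at most 0.64. Alternatives were other scalings, a floor at the 20-copy signal, a doubled threshold, no filter, the mean of all probe sets, average linkage and leaving out cells. Python 3.11.15, numpy 2.4.6, pandas 2.3.3, scipy 1.17.1 and matplotlib 3.10.9 were used.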

Additional observations from a re-analysis of the deposited data

Results flagged for a closer look

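In groups of 4 to 10 cells, 13 of 58 sets of values held 1 cell far from all others by Dixon's criterion. The criterion assumes normal values, whereas 32.3% of members' values lay 4 log2 units or more under the 20-copy signal. The sets also share cells, so the count cannot be set against a rate given by chance. Among NICD/p18 APs, M5A stood high for Mcm7 at 12.49, with the rest at 2.41 to 2.48, and for Prim1 at 12.44, with the rest at 3.68 to 4.26. M5K stood above the rest for Rfc3 at 7.01, against 0.19 to 1.34, though still under the 20-copy signal.

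In the 8 E16 IP-like cells most such cells were low. Rrm2 was at 3.07 in 81O, against 9.95 to 13.25 in the rest. In 73A, Rpa2 was at 1.85 against 8.62 to 11.20 and Mcm3 at 4.46 against 8.91 to 11.88. In 82H, Dut was at 6.83 against 11.34 to 12.67 and Rpa1 at -0.38 against 6.21 to 10.56. Mcm6 was at 3.85 in 75O against 10.34 to 12.84, and Rrm1 at 8.86 in 76C against 11.35 to 13.0016. Outside the list, Cdkn2c was at 5.54 in 75A against 9.69 to 11.89 and Notch1 at 6.65 in 82P against 11.33 to 12.99. The mean of the 46 genes was high in 82P, at 9.26 against 7.07 to 8.07.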

How the results depend on the processing

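Values here are the members' median difference less that of all genes. Counting signals under the 20-copy signal as that signal moved it to -0.69 for NICD/p18 against E12 APs, -0.54 against neurosphere APs, -0.65 against both, -0.58 and -0.68 against E11 and E16 AP-like cells, and to -0.49 and -0.66 for E11 and E16 neuron-like cells. Average linkage moved E11 IP-like cells to -1.98. Leaving out 1 cell in turn gave -5.37 to -4.40 against E12 APs (-4.40 without E12 replicate 1, -4.50 without NICD/p18 replicate 3), -4.62 to -3.17 against neurosphere APs, -4.66 to -3.94 against both, -4.48 to -3.89 and -4.11 to -3.36 against E11 and E16 AP-like cells, and -1.77 to -0.28 for neurosphere against E12 APs. The median number of genes over the 20-copy signal was 21 in E12 and 2 in NICD/p18 APs with the threshold doubled, and 32, 28 and 7 in E12, neurosphere and NICD/p18 APs with signals as deposited. The other 128 values of this kind moved by less than the spread between cells.

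Counts of genes past the 1-unit rule depended on scaling. The share of all genes past the rule was computed only with low signals counted as the 20-copy signal. Under the other settings a change in these counts cannot be told apart from a change over the whole array. With signals as deposited 34 were lower against E12 APs, 27 against neurosphere APs, 29 against both and 8 for E16 against E11. Scaled to the lys spike, 22 were lower against neurosphere APs and 10 for E16 against E11, and 4 were higher in E11 IP-like cells and 1 lower in E16 IP-like cells. With signals under the 20-copy signal counted as that signal, 0 were lower for E16 against E11, where 0.343% of all genes were. For neurosphere against E12 APs 4 were lower and 0 higher, against 2.10% and 2.07% of all genes. In E11 IP-like cells 2 were higher and 2 lower, against 2.01% and 1.54%. In E16 IP-like cells 0 were higher and 1 lower, against 0.556% and 0.547%. With the mean of all probe sets, 7 were lower against neurosphere APs, 10 against both, 6 against E16 AP-like cells, 6 in E16 neuron-like cells, 5 in E11 IP-like cells, 1 in E16 IP-like cells and 3 for E16 against E11. Average linkage gave 1 higher and 16 lower in E11 IP-like cells and 0 higher and 4 lower in E16 IP-like cells, and 9 were lower in neurosphere APs without replicate 1. Of 92 values of named genes 90 kept their sign. Rfc3 in E16 IP-like cells turned to -0.11 with low signals counted as the 20-copy signal, and Prim1 there to -0.10 with average linkage. The cause was not tested. Settings for the comparison with both groups, the cells left out for their markers and the counts were chosen after seeing the data. No paired analysis was possible because the labels tie no cell of one group to a cell of another and no test was run. Signals under the spike level, 32.3% of members' values by 4 log2 units or more, limit every log2 difference.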

Other observations

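Cdk6, which p18 inhibits, was over the 20-copy signal in 4 of 29 E11 cells and in 26 of 28 E16 cells, and in all 4 NICD/p18 APs, taken at E14. It was over it in 1 of 3 E12 APs and in 0 of 3 neurosphere APs. Arrays of E11 and E16 on one side and of the other groups on the other were scaled differently by the authors, so levels across these sets cannot be told apart from that scaling.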
